A study of Drosophila melanogaster with 15 samples.

Results

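The cytosolic chaperonin CCT, also called TRiC, is a barrel of stacked rings built from related subunits. It encloses newly made proteins and uses ATP to fold them, and actin and tubulin are its best-known clients. Each position in a ring is held by its own subunit, so the genes of the subunits are used together in dividing and growing cells, and an embryo relies on the complex to supply its cytoskeleton. Epidermal cells of the Drosophila embryo make trichomes, which are apical extensions filled with bundled actin, late in embryogenesis.

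The expression of CCT subunit genes was measured in whole embryos of 3 genotypes. Of the 8 subunit genes of the complex in Drosophila, 2 were named in the authors' table of 149 selected transcripts: T-cp1 (CG5374, current symbol CCT1, chromosome arm 3R) and CG5525 (current symbol CCT4, chromosome arm 2L). Both arms are those of the RefSeq Release 6 annotation. They were taken by symbol and public identifier from that table, whose rows gave 134 genes that could be joined to a single probe set each, and they are 2 of these 134. The other 6 subunits were not analysed here, because their probe sets were not named in the tables used. T-cp1 was read by a probe set whose identifier ends in _s_at, which marks probes shared by several transcripts, possibly of related genes, and CG5525 by a probe set with the plain _at ending.

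Wild-type embryos (wt) were compared with embryos mutant for shavenbaby (labelled svb -/-, allele svbR9) or for polished rice (labelled pri -/-, allele pri1). The mutants are called svb mutants and pri mutants from here on. The svb gene encodes a transcription factor that directs trichome formation, and pri, also called tarsal-less, encodes small peptides that turn the Svb protein from a repressor into an activator. Mutant embryos came from stocks kept over a GFP balancer chromosome and were picked by hand as lacking it. All embryos were 13 to 15 h old, and each sample was total RNA of 200 whole, dechorionated embryos hybridised to 1 Affymetrix array. There were 5 independent samples, and so 5 arrays, per genotype. Whole embryos pool every tissue, so fewer cells that use a gene and less RNA of it per cell cannot be told apart. For both subunit genes the authors listed no epidermal expression. They gave T-cp1 as ubiquitous and CG5525 as expressed in the muscle system and hindgut. The wt strain, the sex of the embryos and their age within the window were not given in the sources used here, so their part in any difference was not tested, and svb and pri themselves were not checked on the arrays by name.

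Both subunits gave less RNA signal in pri mutants than in the other genotypes, while all svb arrays lay within the range of wt. T-cp1 fell to 41.1% and CG5525 to 31.5% of their mean wt signal in pri mutants, and the means in svb mutants were 92.9% and 87.4% of wt. The authors chose their table on these same 15 arrays for a lower signal in svb mutants and a stronger fall in pri mutants, so the direction of both genes in every genotype comparison was used in choosing them and is a description rather than independent evidence. Signals below are MAS 5.0 intensities, a linear scale on which each array has a trimmed mean of 100, and differences are log2 values without an offset.

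T-cp1 encodes the subunit CCT1. Its signal was 631, 663, 410, 861 and 640 in wt replicates 1 to 5. It was 508, 535, 667, 815 and 453 in svb mutants 1 to 5. It was 196, 258, 336, 188 and 337 in pri mutants 1 to 5. Every pri array lay below every wt and every svb array, whereas the wt and svb arrays overlapped over most of their range. The wt spread was set largely by replicate 3, the lowest wt array, and replicate 4, the highest. The means were 641 ± 160 (SD, n = 5) in wt, 596 ± 145 in svb mutants and 263 ± 72.3 in pri mutants, so the relative spread was alike in the 3 genotypes, with coefficients of variation of 25.0%, 24.4% and 27.5%.

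CG5525 encodes the subunit CCT4. Its signal was 675, 677, 375, 837 and 652 in wt replicates 1 to 5. It was 474, 546, 654, 747 and 389 in svb mutants 1 to 5. It was 136, 216, 315, 133 and 211 in pri mutants 1 to 5. The pri arrays again lay below every other array. In wt and svb mutants the arrays at the ends of each group were the same as for T-cp1. Here too wt replicate 3 was the lowest wt array, and replicate 4 the highest in both wt and svb mutants. In pri mutants replicate 4 was the lowest for both genes, but the highest was replicate 3 for CG5525 and replicate 5 for T-cp1. The means were 643 ± 167 (SD, n = 5) in wt, 562 ± 142 in svb mutants and 202 ± 74.4 in pri mutants. The coefficient of variation was 26.0% in wt, 25.3% in svb mutants and 36.8% in pri mutants.

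**Figure D1:**
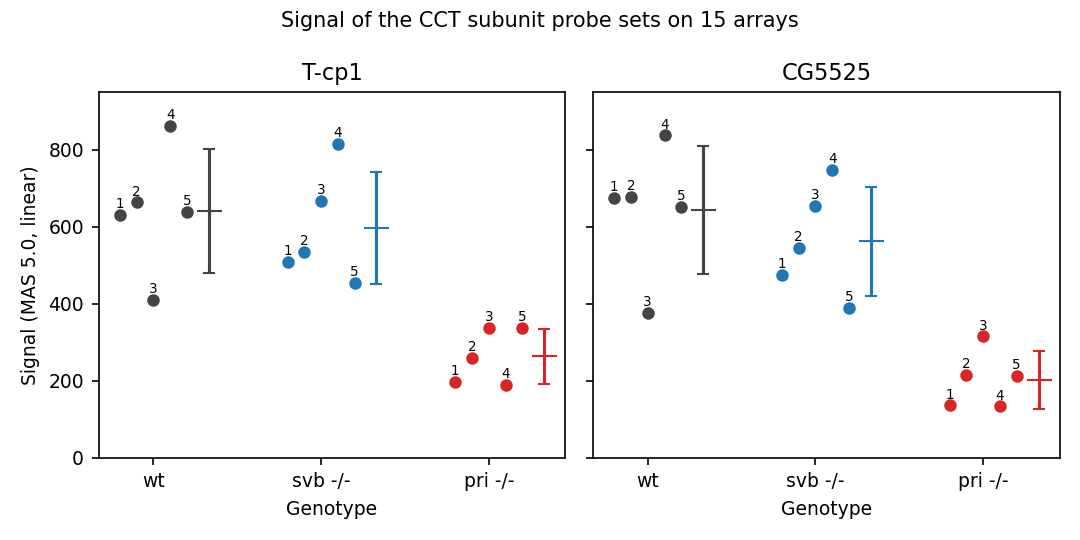
Signal of T-cp1 and CG5525 on each of the 15 arrays (MAS 5.0 intensity, linear axis), with points numbered by replicate and bars for the mean ± SD of each genotype. The pri points, 188 to 337 for T-cp1 and 133 to 315 for CG5525, lie below all wt and svb points, which overlap.

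Both genes were among the brighter probe sets of every array. On the wt arrays T-cp1 stood between percentiles 91.4 and 96.7 of all probe sets, and on the pri arrays between 82.3 and 89.8. CG5525 stood between percentiles 90.5 and 96.5 on the wt arrays, and on the pri arrays between 77.0 and 89.2. The pri mutants thus retained a signal for both subunits above that of most probe sets of the array. These percentiles place a probe set on its array and do not rank the subunits against each other, since probe sets differ in how well they bind.

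The fall in pri mutants against wt was fitted with limma across 8631 probe sets and adjusted by the Benjamini-Hochberg method. T-cp1 was lower by 1.29 on the log2 scale, a 2.45-fold lower level (95% interval 1.76 to 3.39; SE of the log2 value 0.22; adjusted p = 0.000343). CG5525 was 3.24-fold lower (2.22 to 4.73; log2 difference -1.70, SE 0.26; adjusted p = 0.000111). Both of the 2 members passed the threshold, and so did 23.1% of all probe sets tested in the lower direction (41.3% in either direction), so a fall in pri mutants was widespread on these arrays. Groups that did not overlap, with all 5 pri arrays below all 5 wt arrays, were found for both members and for 14.2% of all probe sets tested. Of all probe sets tested, 3.86% had a lower log2 difference than T-cp1 and 1.95% a lower one than CG5525, beside a median of -0.04 over all of them.

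Within the authors' table the subunits were not among the genes with the steepest falls. Counted from the lowest log2 difference between pri mutants and wt, CG5525 ranked 67 and T-cp1 ranked 104 of the 134 named genes, whose median was -1.69. CG5525 thus sat at the middle of the table and T-cp1 in its shallower part.

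The pri mutants also stood below the svb mutants. T-cp1 was 2.28-fold lower (95% interval 1.65 to 3.17; log2 difference -1.19, SE 0.22; limma adjusted p = 0.000453). CG5525 was 2.85-fold lower (1.95 to 4.16; log2 difference -1.51, SE 0.26; limma adjusted p = 0.000213). In this comparison 24.7% of all probe sets tested were called lower (46.1% in either direction) and 13.8% had pri arrays entirely below the svb arrays, as both members had. The pri arrays are shared by this comparison and the one with wt, so the members' values in them are not separate evidence. Both calls were kept under each of the 24 alternatives tried, including the fits that left out each array in turn, in which the log2 difference from wt ranged from -1.44 to -1.17 for T-cp1 and from -1.88 to -1.57 for CG5525.

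Neither subunit passed the test in svb mutants against wt. T-cp1 differed by -0.10 on the log2 scale (95% interval -0.57 to 0.37, SE 0.22, limma adjusted p = 0.889). CG5525 differed by -0.19 (-0.73 to 0.36, SE 0.26, limma adjusted p = 0.790). In all, 4.00% of the probe sets tested were called lower in this comparison (6.01% in either direction), and 4.06% had all svb arrays below all wt arrays, as 0 of the 2 members had. Of the probe sets tested, 37.0% had a lower log2 difference than T-cp1 and 27.0% a lower one than CG5525. The intervals leave room for a modest fall or a modest rise of either gene, and a p that misses the threshold does not show that svb mutants and wt were alike. The small difference of T-cp1 turned to 0.017 without wt replicate 4 and to 0.0057 after centring each array on its median, and it was -0.25 without wt replicate 3. With arrays weighted by their agreement with the fit, the differences were -0.29 for T-cp1 (limma adjusted p = 0.330) and -0.38 for CG5525 (adjusted p = 0.281). The array with the lowest weight (0.214) was svb replicate 4, which was the highest svb array for both subunits and had a median signal of 9.82 beside a mean of 13.2 over the svb arrays, and without it they were -0.22 and -0.30. CG5525 ranged from -0.37 without wt replicate 3 to -0.06 over the fits that left out 1 array and kept its sign in all of them.

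**Figure D2:**
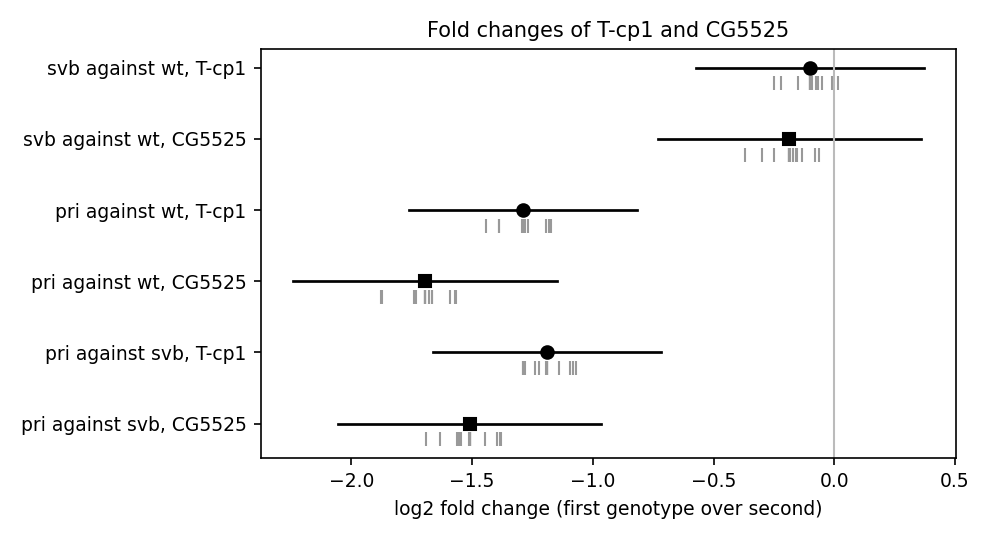
Log2 difference of T-cp1 and CG5525 in each genotype comparison, with dots for the limma estimate, bars for its 95% interval and grey ticks for the fits that left out 1 array. The intervals lie below 0 for pri mutants against wt and against svb mutants and span 0 for svb mutants against wt.

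The next comparison asked if the signals of both subunits changed by the same factor. The log2 ratio of T-cp1 to CG5525 was taken within each array, which cancels the scaling of the array, and the table had not been chosen on it. It was -0.10, -0.03, 0.13, 0.04 and -0.03 on the wt arrays 1 to 5. It was 0.10, -0.03, 0.03, 0.12 and 0.22 on the svb arrays 1 to 5, and 0.53, 0.26, 0.09, 0.50 and 0.67 on the pri arrays 1 to 5. In 4 of the 5 pri mutants the ratio lay above every wt and every svb array, and the exception was pri replicate 3. The mean was 0.0030 ± 0.08 (SD, n = 5) in wt, 0.09 ± 0.09 in svb mutants and 0.41 ± 0.23 in pri mutants. Because the ratio compares each gene with itself across genotypes, its zero point carries no meaning for the amounts of the subunits. Whether both probe sets respond alike to the same change in RNA was not tested, so a shift of the ratio describes the signals.

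The ratio was higher in pri mutants than in wt by 0.41 (2-sided exact permutation test, p = 0.0159, adjusted p = 0.0476 over 3 comparisons, where the smallest p possible was 0.00794). It was higher than in svb mutants by 0.32 (exact permutation p = 0.0317, adjusted p = 0.0476). Between svb mutants and wt the ratio differed by 0.09, which did not pass (exact permutation p = 0.206, adjusted p = 0.206). The calls rested on few arrays and on the processing. The call against svb mutants was lost with an offset of 16 (exact permutation, adjusted p = 0.0595) and with quantile normalization (adjusted p = 0.0714), and both calls were lost with the replicate number as a block (adjusted p = 0.188 each), where 5 pairs allow no p below 0.0625. The difference from wt ranged from 0.34 to 0.49 when single arrays were left out and missed the threshold without pri replicate 1, 2, 4 or 5 (exact permutation, adjusted p = 0.0952 each). The difference from svb mutants ranged from 0.25 to 0.40 and missed it without pri replicate 1, 2, 4 or 5 or without any 1 of the svb arrays (exact permutation, adjusted p from 0.0714 to 0.0952).

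**Figure D3:**
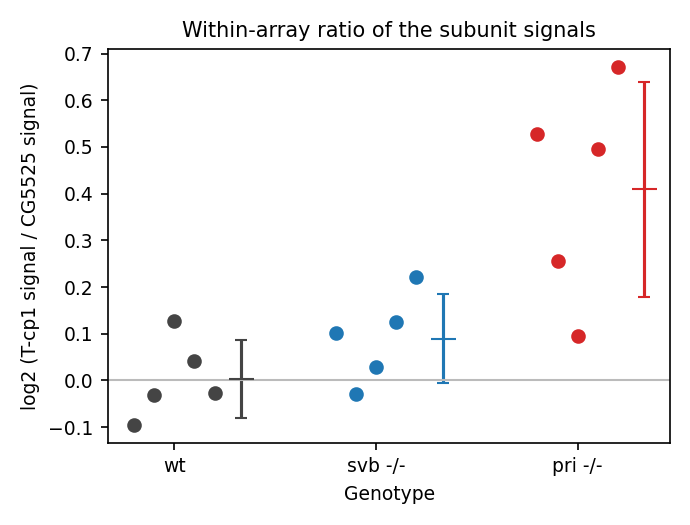
Log2 ratio of T-cp1 to CG5525 signal on each array, by genotype, with the mean ± SD. The ratios are -0.10 to 0.13 in wt, -0.03 to 0.22 in svb mutants and 0.09 to 0.67 in pri mutants.

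Apart from the difference between genotypes, the subunits also moved together from array to array. After the mean of its genotype was subtracted from each log2 signal, T-cp1 and CG5525 lay on the same side of the mean on 15 of 15 arrays. The correlation of these deviations was r = 0.945 (Spearman's rho 0.936, n = 15), given as a description. It was 0.924 without wt replicate 3 and svb replicate 4, the arrays farthest out for T-cp1. Within wt, svb and pri arrays it was 0.985, 0.969 and 0.905 over 5 arrays each. The points share RNA sample, array and scaling. A line through the deviations had a slope of 1.12 for CG5525 on T-cp1, so CG5525 deviated slightly more widely, as its log2 SD of 0.43, 0.37 and 0.52 in wt, svb and pri arrays beside 0.39, 0.34 and 0.40 for T-cp1 also shows.

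**Figure D4:**
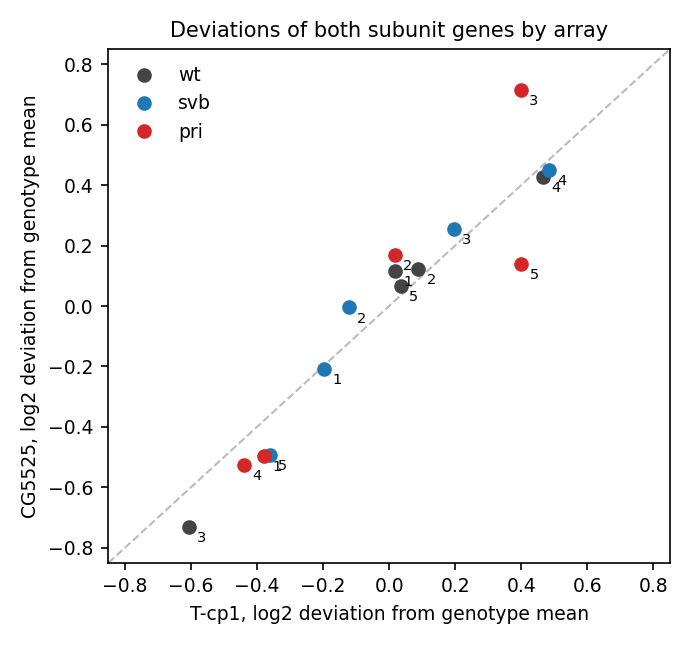
Deviation of log2 signal from the genotype mean for T-cp1 (horizontal) and CG5525 (vertical) on the 15 arrays, with a dashed line of equality. All 15 points fall in the lower left or upper right of the plot (r = 0.945).

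This co-variation was shared with other genes. Of the 8630 other probe sets tested, 547 (6.34%) had deviations correlating above 0.8 with T-cp1 and 587 (6.80%) with CG5525, beside medians of -0.01 and -0.05 over all. Of these probe sets, 27 correlated with T-cp1 more closely than CG5525 did, and 39 correlated with CG5525 more closely than T-cp1 did. Among the named genes, 32 passed 0.8 for T-cp1 and 40 for CG5525, while 45 and 51 lay below 0, so the table did not vary as 1 block around the subunits. The main axis of variation within genotypes, which held 43.4% of its variance, correlated with the deviations of T-cp1 at r = 0.46 and of CG5525 at r = 0.35. The direction of this axis was set to make the value for T-cp1 positive, so that sign carries no meaning. The largest score on the axis, 0.73, was that of svb replicate 4.

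The named genes most like T-cp1 were Sec23, which encodes a coat protein of the vesicles that leave the endoplasmic reticulum (within genotypes r = 0.955), CG6415 (0.953), CG5525 itself as the next, Cbs, the cystathionine beta-synthase (0.933), and Fib, the nucleolar RNA methyltransferase fibrillarin (0.927). Over all 15 arrays with the genotypes left in, the nearest to T-cp1 were Sec23 (r = 0.989), CG6415 (0.988), CG5525 (0.986), CG11771 (0.980) and SrpRalpha, a part of the receptor that docks ribosomes making secreted proteins (0.979). For CG5525 the closest within genotypes were Prosalpha4, a subunit of the proteasome core (0.962), CG6415 (0.960), CHOp24, a p24 family protein of the secretory pathway (0.952), T-cp1 and Svip (0.944). Over all 15 arrays they were CG6415 (0.991), Prosalpha4 (0.987), T-cp1 (0.986), Svip (0.986) and CG13365 (0.985). CG6415 was thus in each of the 4 lists, and each subunit was in the lists of the other. These correlations over 15 arrays are a description, and neighbours in such an order differ by too little to be ranked.

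**Figure D5:**
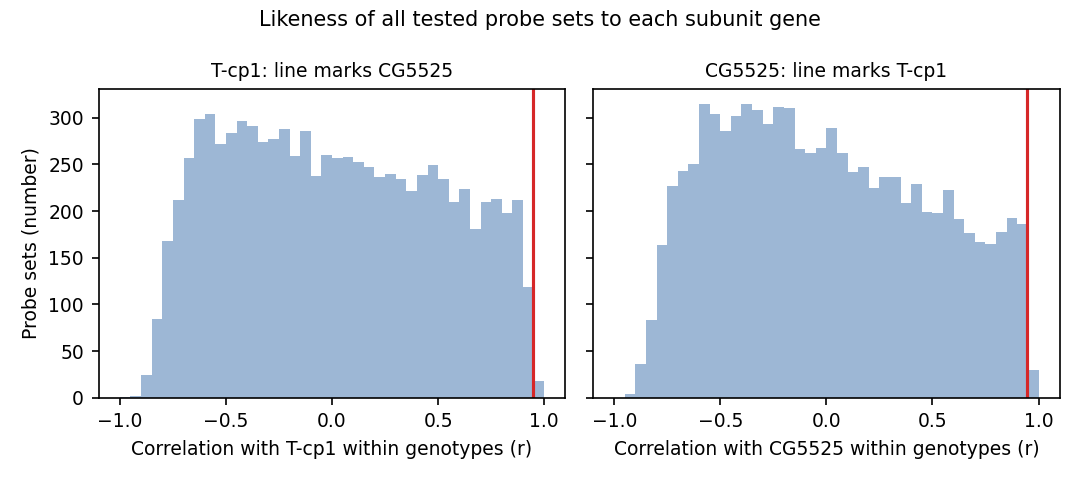
Distribution over 8630 probe sets of the correlation of within-genotype deviations with T-cp1 and with CG5525, with a line at the other subunit. The line stands at 0.945, far into the upper tail, with 27 and 39 probe sets above it.

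Of the genes that work with the chaperonin, the authors' table named none. This held for 8 genes of the chaperonin's cofactors and the prefoldin complex, which hands unfolded actin and tubulin to it, for 11 other chaperones, for 6 actins and for 12 tubulins and tubulin cofactors. The absence of a name in that table says only that a gene was not selected there, and their probe sets were not analysed here. Actin, the main client, could be read from control probe sets of the array.

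Of the 8 actin control probe sets, 0 were called lower and 2 were called higher in pri mutants than in wt (exact permutation), and the median log2 difference over the 8 sets was 0.22. That median was 0.24 after quantile normalization and 0.03 after median centring. The 3′ probe set of Act5C, a cytoplasmic actin, has an identifier ending in _s_at, so its probes may be shared with related genes. Its signal was 3200 ± 297 (SD, n = 5) in wt, 3084 ± 651 in svb mutants and 2805 ± 190 in pri mutants. The log2 difference between pri mutants and wt was -0.19 and did not pass (exact permutation, adjusted p = 0.0857 over 54 tests). This sign depended on the scaling, as it was 0.17 after quantile normalization and -0.38 after median centring, and it passed the test in both of these. The 5′ probe set of Act5C rose from 155 ± 53.7 in wt and 199 ± 77.2 in svb mutants to 334 ± 28.2 in pri mutants (log2 difference from wt 1.17, exact permutation, adjusted p = 0.0357), and a related 5′ set of Act5C rose by 1.12. These were the 2 actin sets called higher, and both kept that sign and call against wt under each scaling. Another 5′ actin set differed from wt by 0.35 in pri mutants and was not called (exact permutation, adjusted p = 0.263). Of the actin sets, 0 of 8 were called between svb mutants and wt by the exact permutation test.

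The 3′ to 5′ log2 ratio of Act5C, a common sign of RNA integrity and of labelling, was taken from a single pair of probe sets. It was 4.43 ± 0.53 in wt, 4.05 ± 0.49 in svb mutants and 3.07 ± 0.07 in pri mutants. It was lower in pri mutants than in wt and than in svb mutants (exact permutation, adjusted p = 0.0317 for each over 12 comparisons of array measures). Its 5′ set was among the actin sets called higher in pri mutants, so this ratio and that rise are not separate evidence. In another actin pair, the 3′ and 5′ sets differed from wt by -0.10 and 0.35 in pri mutants. In svb mutants they differed from wt by -0.26 and 0.14, and none of these differences was called (exact permutation). The 3′ to 5′ log2 ratio of GAPDH, also from a single pair, was 1.62 in wt, 1.32 in svb mutants and 1.47 in pri mutants. That of eIF-4a was 2.97, 2.58 and 2.55. Neither passed in any comparison, with adjusted p of 0.324 for GAPDH and 0.0833 for eIF-4a between pri mutants and wt (exact permutation). The median signal of all probe sets was 14.0 ± 0.930 in wt, 13.2 ± 2.33 in svb mutants and 16.1 ± 0.882 in pri mutants. It was higher in pri mutants than in wt (exact permutation, adjusted p = 0.0317) and did not pass against svb mutants (adjusted p = 0.0635). The Act5C ratio, against both other genotypes, and the median signal, against wt, thus differed in the genotype in which the subunits fell. Their part in that fall was not tested. Within genotypes, the Act5C ratio correlated with the deviations of T-cp1 at r = -0.30 and of CG5525 at r = -0.36, and the median signal at -0.04 and 0.13. After centring each array on its median, the fall from wt to pri mutants was -1.49 for T-cp1 and -1.89 for CG5525. Of the other control genes, eIF-4a was lower in pri mutants than in wt in 2 of 3 probe sets, by 0.42 and 0.27, and 3 of 7 GAPDH sets were lower in svb mutants than in wt, and 3 of 7 stood higher in pri mutants than in svb mutants (exact permutation). The eIF-4a calls were lost after quantile normalization.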

How the data were processed

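Total RNA of 15 embryo samples, 5 per genotype, was hybridised to Affymetrix Drosophila Genome 2.0 arrays. The deposited values were MAS 5.0 intensities, made by the authors in Expression Console 1.1 and scaled to a trimmed mean of 100 on each array, with no genome build given in the sources used here. Scaling to a common mean makes signals relative to the rest of the array. Precision is limited by the 5 arrays per genotype. Of 18952 probe sets, 183 array controls were set aside and 8631 were tested, those with a highest group mean of at least 5 on the log2 scale (signal 32). Log2 intensities were fitted with limma 3.58.1 in R 4.3.3 (3 group means, trended eBayes, Benjamini-Hochberg adjustment within each comparison, threshold 0.05), after the procedure was tested on simulated data. Within-array ratios, control probe sets and array measures were compared with 2-sided exact permutation tests. No pair of arrays was identical (highest correlation 0.966). Probe sets were named by joining the values of the authors' table of selected transcripts to the array values (145 of 149 rows matched a single probe set at a relative tolerance of 1e-05), which left 134 genes after 9 rows with several symbols, 1 whose symbol and identifier differed and 1 repeated row were set aside, and 34 symbols were updated. The columns of that table that hold the authors' own fold changes and p-values were not used. Genes named were both members, the 5 named genes most correlated with each over 15 arrays and within genotypes, the genes of 5 fixed lists (chaperonin subunits, cofactors and prefoldin, other chaperones, actins, tubulins) and the actin, GAPDH and eIF-4a controls. Members and lists were chosen with earlier results of these data known. Alternatives were quantile normalization, median centring, an offset of 16, and no filter or a stricter one. Further alternatives were eBayes without the trend, array weights, 2 groups only, the replicate number as a block and leaving out each array. Sequences and promoter motifs of the members were not analysed here. Scan batches were not given in the sources used here, so batch was not tested.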

Additional observations from a re-analysis of the deposited data

How the results depend on the processing

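All falls of T-cp1 and CG5525 in pri mutants kept their direction and call (largest adjusted p 0.00208, with the replicate block). T-cp1 in svb mutants against wt, -0.10, turned to 0.0057 under median centring and ranged from -0.25 to 0.017 without single arrays (the latter without wt replicate 4), and it passed under no alternative. For svb mutants against wt, 345 probe sets called lower became 201 under median centring, 218 with the stricter filter, 569 with array weights and 221 with only these groups, and 174 called higher became 103, 348 and 109 under the last 3 of these. Median centring moved 1990 lower and 1576 higher to 2328 and 1047 in pri mutants against wt, and 2128 and 1855 to 3053 and 1149 against svb mutants. It shifted the median of all probe sets to -0.24 and -0.34 in these comparisons. The ratio difference from svb mutants missed the threshold with an offset of 16 (0.29, adjusted p = 0.0595, exact permutation) and, in an alternative chosen after seeing the data, with quantile normalization (0.32, adjusted p = 0.0714, exact permutation). With the replicate block it was 0.32 and the difference from wt 0.41 (exact permutation, adjusted p = 0.188 each), where 5 pairs allow no p below 0.0625. Without single arrays these differences ranged from 0.25 to 0.40 and from 0.34 to 0.49. Control probe sets called between pri and svb mutants went from 5 to 3 under median centring, and from 3, 4 and 5 to 0 in all comparisons when an array was left out. The comparisons that used that array then allowed no p below 0.0159, and the others were still adjusted over all 54 tests. The replicate numbers did not pair the arrays: 7 of 15 same-numbered pairs correlated above 0.1, 2 of 15 arrays were closest to their own number, and the block gave 273 lower calls for svb mutants and 1843 for pri mutants against wt. Other causes were not tested.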
